A study of Drosophila melanogaster with 6 samples.

Results

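The 66 genes described here encode subunits of the mitochondrial respiratory chain and of ATP synthase in Drosophila melanogaster, with cytochrome c, the ADP/ATP carrier and 1 assembly factor. They were chosen by symbol (beginning with ND-, UQCR, COX, ATPsyn or Sdh, or equal to RFeSP, Cyt-c1, Cyt-c-p, ox, cype, blw or sesB) from the 6156 genes in a table of tumor against control. By complex they divide into 31 genes of complex I, 4 of complex II, 8 of complex III, 9 of complex IV, 12 of complex V and the 2 carriers. RNA sequencing was done on 3 control and 3 tumor samples, described as larval salivary gland imaginal ring. This is a band of small diploid precursor cells where the gland meets its duct. In control, markers of salivary gland secretory cells and of fat body had far higher summed estimated levels than imaginal ring markers, as given below. The samples are therefore not taken here to be ring cells alone. Control animals had the genotype Actts>GFP and were labelled as the third instar larva stage. Tumor animals had the genotype Actts>GFP+NICD and were kept for 7 days at 18 °C and then 7 days at 29 °C, per the labels. Both groups carry an actin driver, which acts in most cell types, with GFP and Gal80ts, a temperature-sensitive repressor of that driver. NICD is the intracellular, active part of the receptor Notch. For control neither days nor temperatures are labelled, so age, temperature and NICD cannot be told apart.

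The respiratory chain sits in the inner mitochondrial membrane and passes electrons from NADH and succinate to oxygen while pumping protons. Complex I (NADH dehydrogenase) and complex II (succinate dehydrogenase) feed electrons to ubiquinone, complex III passes them to cytochrome c, and complex IV (cytochrome c oxidase) passes them to oxygen. Complex V, the ATP synthase, uses the proton gradient to make ATP, which the ADP/ATP carrier exports to the cytosol. Most subunits are encoded in the nucleus and must be made in balance with a small set encoded in mitochondrial DNA.

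The values are the authors' own comparison, with no value per sample, so no SD, SE or spread between replicates can be given and the depth of each library is unknown. A log2 value above 0 means more transcript in tumor. Nothing in the labels tells separate animals from pools or repeats, so the p-values cover only the spread among these samples, which may be technical. The table holds only genes with an adjusted p below 0.05 (6156 of 9384 tested, or 65.6%), so each of the 66 genes was called because of how the table was made, and their number is not a result. Levels per group were estimated from the authors' mean and fold change, on the authors' normalized scale of counts per 1000000 reads (CPM). In bulk RNA, fewer cells of a type and less RNA per cell cannot be told apart.

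Transcripts of the respiratory chain and ATP synthase fell in tumor on the authors' scale, in every complex and by similar amounts. Of the 66 genes, 65 were lower and 1, COX6AL, was higher in the authors' deposited table, against 31.6% and 34% of all tested genes called lower and higher. Their median on the log2 scale was -2.08 (4.22-fold lower), beside 0.57 for all listed genes. Of these, 61 were at least 2-fold lower (23.5% of all tested genes), and 64 were lower at an adjusted p below 0.01 (25.8% of all tested genes). Nothing is read from these shares, since only called genes are listed. A share that does not rest on being listed can be had from the annotation. The symbol rule finds 71 genes there once duplicate copies with symbols ending in L are set aside, and 66 of them (93.0%) are among the genes called lower, COX7B (listed under its older symbol CG7630) included, against 31.6% of all tested genes. With the copies kept the share is 66 of 95 (69.5%). The genes lie in a narrow band: the quartiles of their log2 fold changes were -2.27 and -1.71, whereas those of all listed genes were -1.49 and 1.80. The listed genes leave out uncalled genes, so their median and quartiles are not those of all tested genes.

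The direction depends on what the libraries are scaled to. Estimated levels of all listed genes came to 1224976 CPM for control but 351471 CPM for tumor, a ratio of 3.49. The control sum exceeds 1000000, so these estimates are not plain counts per 1000000 reads of a library. The 66 genes came to 19035 CPM and 5375 CPM, a ratio of 3.54. They therefore made up nearly the same share of the listed total in both groups, 1.55% in control and 1.53% in tumor. Of these totals, 7 fat body markers held an estimated 193698 CPM in control and 1616 CPM in tumor. The 6 listed markers of salivary gland secretory cells held 201560 CPM and 157 CPM. With the 2 listed totals set equal, all values shift up by 1.80 on the log2 scale, the median of the 66 genes becomes -0.28, and 48 are lower and 18 higher. On that scale the median of all listed genes becomes 2.37, so most listed genes would be higher in tumor. A smaller shift of 1.22 results if library totals are set equal, taking the authors' group factors to multiply to 1 and unlisted genes to add equally to both groups, and then 58 are lower and 8 higher. Differences between genes do not depend on this choice. The median of the 66 genes lies 2.65 log2 units below the median of all listed genes, and the median gene has a lower value than all but 16.5% of them. The listed genes leave out 3228 tested genes that were not called, and no listed gene lies within 0.41 log2 units of 0. This gap and rank therefore hold among called genes and may differ over all tested genes.

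**Figure D1:**
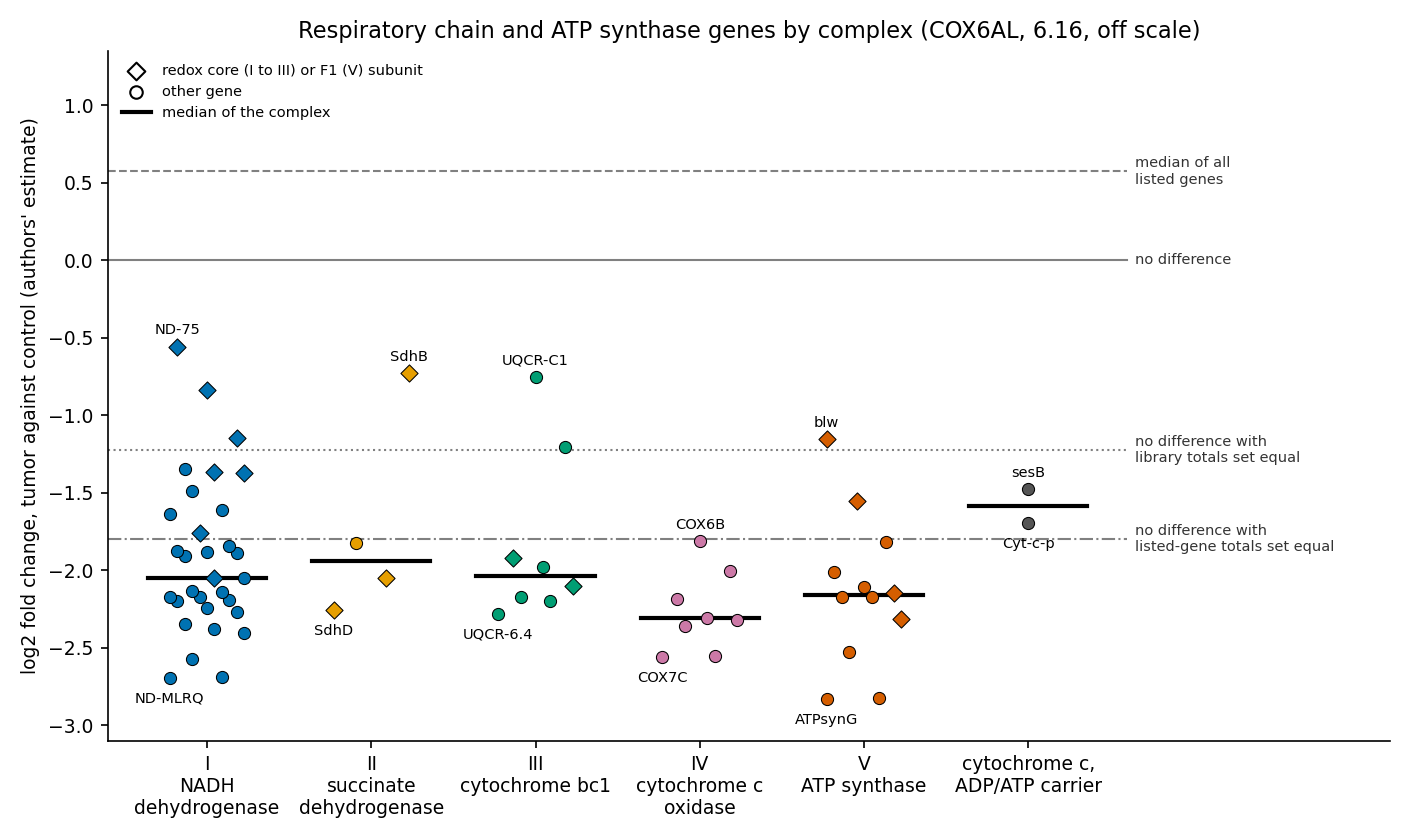
Each point is 1 gene, placed by complex, with its log2 fold change on the vertical axis (authors' estimate, tumor against control), and black bars are medians of each complex. Apart from COX6AL, every gene lies below 0 on the authors' scale, 17 of these lie above the dash-dotted line and would be higher in tumor with listed-gene totals set equal, and 7 lie above the dotted line for equal library totals.

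Complex I is the largest of the chain, and its 31 listed genes were lower with a median of -2.05, or -0.25 with listed totals set equal. Its redox core is made of 7 nuclear-encoded subunits that carry the flavin and iron-sulfur clusters or form the quinone site. Their median fall was smaller than that of the other genes, though not each of the 7 fell less. ND-75 and ND-51, both of the arm that oxidises NADH, were 1.47-fold and 1.79-fold lower per the authors' deposited table (adjusted p = 0.01999 and 0.00082). With listed totals set equal both would be higher in tumor (log2 1.24 and 0.96). Of the same arm, ND-24 was 4.14-fold lower per the authors' deposited table (adjusted p = 0.00012). The core subunits of the arm that reduces quinone, ND-20, ND-23, ND-49 and ND-30, were 2.22-fold, 2.58-fold, 2.59-fold and 3.38-fold lower per the authors' deposited table. The 7 core genes had a median of -1.37, and the other 24 genes, which encode accessory subunits, a median of -2.16. The groups overlap, since accessory values ran from -2.70 to -1.35, and of the core genes 4 lay inside that range and 3 (ND-75, ND-51 and ND-20) above it.

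The lowest values in complex I belonged to small accessory subunits. ND-MLRQ and ND-B15 were 6.48-fold and 6.46-fold lower per the authors' deposited table (adjusted p = 0.00028 and 0.00020), from an estimated 270 to 41.6 CPM and from 86.8 to 13.4 CPM. The mammalian counterpart of ND-MLRQ has been reassigned to cytochrome c oxidase. ND-B14.5A, ND-AGGG and ND-15 followed at 5.96-fold, 5.30-fold and 5.21-fold lower per the authors' deposited table. The smallest falls among accessory subunits were those of ND-42 and ND-B16.6, at 2.54-fold and 2.81-fold lower per the authors' deposited table (adjusted p = 0.00056 and 0.0024). ND-ACP, the mitochondrial acyl carrier protein, which also serves lipoic acid and fatty acid synthesis, was 3.59-fold lower per the authors' deposited table.

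Complex II is the only complex with no mitochondrially encoded subunit, and its enzyme also works in the tricarboxylic acid cycle. SdhC and SdhD, which anchor it in the membrane, were 4.15-fold and 4.78-fold lower per the authors' deposited table (adjusted p = 0.00011 and 8.65e-05). SdhB, the iron-sulfur subunit, was only 1.66-fold lower there (adjusted p = 0.0016), from an estimated 107 to 64.6 CPM, and would be higher in tumor with listed or library totals set equal. SdhA, the flavin subunit, has no row, so it was either not called or not tested. Sdhaf3, an assembly factor and the least abundant of the lower genes (mean 4.16 CPM), was 3.54-fold lower per the authors' deposited table.

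In complex III the large core proteins had the smallest falls. These are UQCR-C1 and UQCR-C2, which face the matrix and carry no redox group, and they were 1.69-fold and 2.30-fold lower per the authors' deposited table (adjusted p = 0.0022 and 0.00019), and both would be higher in tumor with listed or library totals set equal. RFeSP, the Rieske iron-sulfur protein, and Cyt-c1, which together carry electrons through the complex, were 4.29-fold and 3.78-fold lower per the authors' deposited table. The small subunits UQCR-6.4, ox, UQCR-Q and UQCR-11 were 4.86-fold, 4.59-fold, 4.50-fold and 3.95-fold lower per the authors' deposited table. The median of the 8 genes was -2.04, or -0.24 with listed totals set equal.

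Complex IV had the lowest median of the complexes, -2.31, and a narrow range if COX6AL is set aside. Its catalytic subunits are encoded in mitochondrial DNA, and the genes here encode nuclear subunits around them. The 8 genes other than COX6AL ran from -2.56 to -1.81, all at or below the line of equal listed totals. COX7C and COX8 were 5.90-fold and 5.88-fold lower, and COX7A and COX6B 4.01-fold and 3.52-fold lower, per the authors' deposited table. The abundant subunits COX4 and COX5A were 4.96-fold and 5.14-fold lower per the authors' deposited table (adjusted p = 0.00012 and 0.00023), from an estimated 466 to 94.0 CPM and from 429 to 83.4 CPM. cype, which encodes subunit VIc, stood at -2.32 on the log2 scale of the authors' deposited table.

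ATP synthase genes were lower in 12 of 12, with a median of -2.16, or -0.36 with listed totals set equal. The subunits of the catalytic head F1 that bind the nucleotides fell least. These, alpha (blw) and beta (ATPsynbeta), were 2.23-fold and 2.93-fold lower per the authors' deposited table (adjusted p = 0.00050 and 0.00014). Both would be higher in tumor with listed totals set equal (log2 0.65 and 0.25). ATPsyngamma and ATPsyndelta, of the rotating central stalk, were 4.42-fold and 4.98-fold lower per the authors' deposited table, so the F1 genes ranged from -2.32 to -1.16. ATPsynG and ATPsynF, small membrane subunits, fell furthest of the 66 genes, 7.101-fold and 7.09-fold lower per the authors' deposited table (adjusted p = 0.00049 and 0.00010). ATPsynF went from an estimated 583 to 82.2 CPM. ATPsynC, which forms the proton-driven ring, was 3.53-fold lower per the authors' deposited table, and the stalk subunit ATPsynO, the oligomycin sensitivity protein, 5.77-fold lower.

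Cytochrome c and the ADP/ATP carrier had smaller falls than most subunits. Cyt-c-p, the cytochrome c of most tissues, was 3.25-fold lower and sesB, the main ADP/ATP carrier, 2.79-fold lower per the authors' deposited table (adjusted p = 0.00027 and 0.00033), and both would be higher in tumor with listed totals set equal. Ant2, a second carrier gene next to sesB, was 2.54-fold higher per the authors' deposited table (adjusted p = 0.0082) at a mean of 1.64 CPM, against 1043 CPM for sesB. The annotated exons of both genes share 102 bases on the same strand, so some reads cannot be assigned to either.

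The medians of the complexes lay close together beside the ranges of their genes. The largest gap between medians, that of complexes II and IV, was 0.37 log2 units, whereas the genes of complex I spanned -2.70 to -0.56 and those of complex V -2.83 to -1.16. A range widens with the number of genes, so it cannot be weighed directly against a gap between medians. Without the assembly factor Sdhaf3 the median of complex II was -2.05, nearer to that of complex IV. No test of these gaps was run, since genes of a complex are not replicates. The shares of the summed levels held by complexes I and V moved little. Complex I had 22.8% of the 66 genes' estimated CPM in control and 23.2% in tumor, and complex V 43.8% and 42.3%. The share of complex IV went down from 13.6% to 10.3%. Those of complexes II and III went up, from 1.99% to 2.34% and from 8.50% to 10.1%.

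Per length of transcript, ATP synthase and cytochrome c oxidase genes were the most abundant of the complexes in both groups. Median estimated levels per kb in control were 554 CPM for complex IV, 543 for complex V, 224 for complex III, 173 for complex I and 120 for complex II, and in tumor 116, 134, 60.8, 43.6 and 35.8 CPM per kb in the same order. With no spread between samples, complexes IV and V cannot be ranked against each other. ATPsynC had the highest level, an estimated 1243 CPM per kb in control and 352 in tumor, followed in control by ATPsynF (1023), ATPsynG (945) and sesB (911). In tumor the order after ATPsynC was sesB (327), ATPsynbeta (234) and blw (218 CPM per kb), and ATPsynF stood at 144. UQCR-C1, at 199 CPM per kb in control, was below UQCR-11, UQCR-Q, RFeSP and other genes of complex III, and at 118 in tumor it was the highest of that complex.

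**Figure D2:**
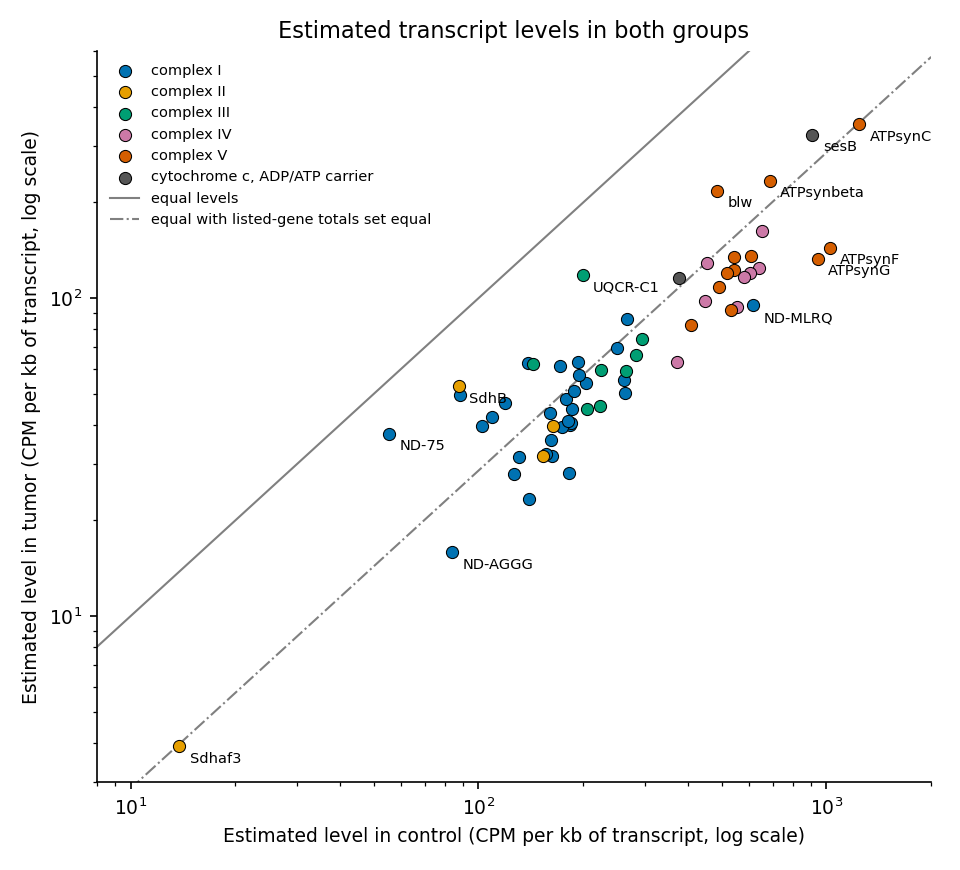
Each point is 1 gene, with its estimated level in control on the horizontal axis and in tumor on the vertical axis, both in CPM per kb of transcript on log scales (COX6AL left out). All points lie below the line of equal levels on the authors' scale, and they scatter around the dash-dotted line for equal listed totals, with blw, UQCR-C1, SdhB and ND-75 above it and ATPsynF, ATPsynG and ND-AGGG below.

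Size of fall went with transcript length. Among the 65 lower genes, log2 fold change and median annotated transcript length had a Spearman's rho of 0.66, with longer transcripts falling less. Within complexes rho was 0.75 in complex I (31 genes), 0.88 in complex III (8 genes), 0.50 in complex IV (8 genes) and 0.73 in complex V (12 genes). These are descriptions across genes of the same libraries, and genes are not independent. The same relation held over all listed genes with a known length (rho 0.45, 6111 genes), and over all listed genes fold change went down with mean expression (rho -0.35, 6156 genes). Among the 65 lower genes it did not, with a rho of 0.14 for mean expression, and within complexes that rho was 0.50 in complex I, 0.81 in III, 0.43 in IV and 0.44 in V. The genes described here are short and abundant, with a median transcript of 735.5 bases against 1874 for all listed genes.

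Other short genes that passed a limit on mean expression fell by nearly as much. The mean covers both groups, so a gene high in only 1 group can pass. Sgs7, for example, had an estimated 75119 CPM in control and 5.24 CPM in tumor. Of listed genes with a transcript up to 1000 bases and a mean of at least 32 CPM, the 49 of the respiratory chain and ATP synthase were all lower with a median of -2.17, and of 395 others 356 (90.1%) were lower with a median of -1.98. By length class at the same limit on expression, the other genes fell further among transcripts up to 500 bases, with a median of -2.99 for 54 others against -2.44 for 8 genes described here. Over 500 and up to 750 bases the medians were -2.14 for 24 genes described here and -2.04 for 153 others, and over 750 and up to 1000 bases -2.13 for 17 and -1.66 for 198 others. Over 1000 and up to 1500 bases they were -1.82 for 5 and -1.55 for 445 others, and over 1500 and up to 2500 bases -1.29 for 8 and -1.02 for 724 others. ND-75, the longest at 2557 bases, was lower, as were 22.1% of 996 other genes over 2500 bases at that limit. Without the limit on expression the other genes fell less. Their medians were -2.18 up to 500 bases (213 genes), -1.58 over 500 and up to 750 (409), and -1.23 over 750 and up to 1000 (525). Those of the genes described here were -2.32, -2.14 and -2.13. The part of transcript length and expression in the fall was not tested.

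**Figure D3:**
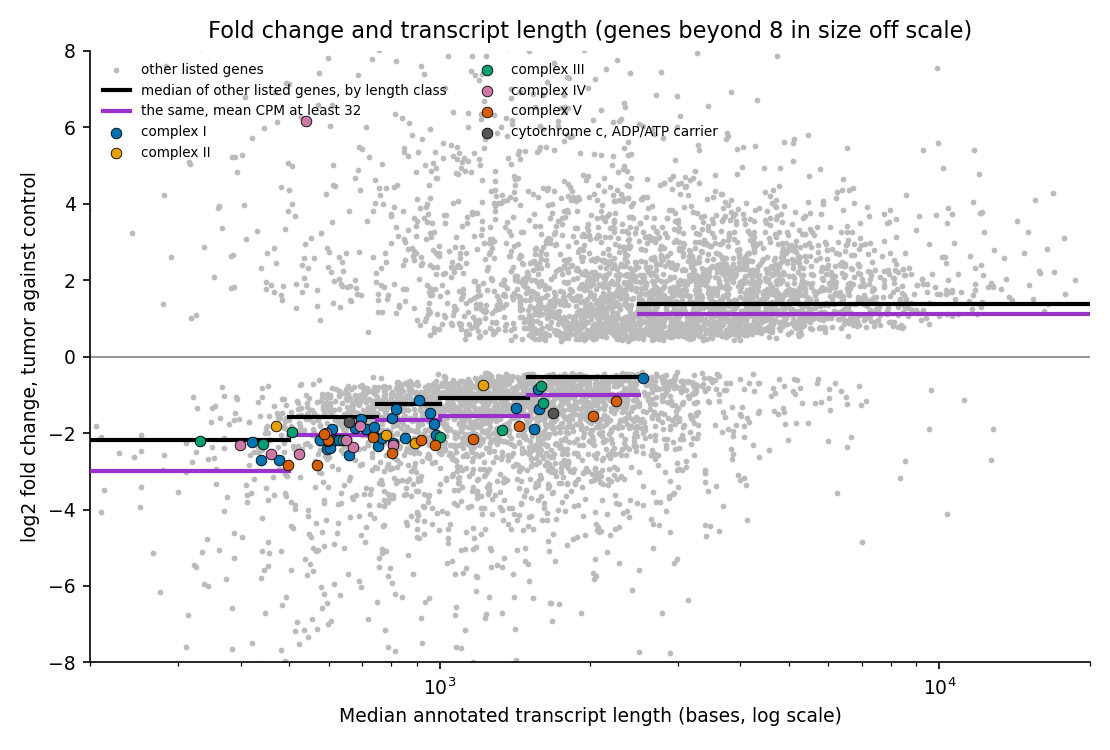
Each point is 1 listed gene, with median transcript length in bases on a log axis and log2 fold change (authors' scale) on the vertical axis; black and purple bars are medians of other listed genes by length class, without a limit and with a mean of at least 32 CPM. Respiratory chain and ATP synthase genes sit among the short, lower genes, and both rise together toward longer transcripts.

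Duplicate copies of these genes were mostly not listed. Fly genomes hold second copies of many of these genes, several known for expression in testis, and the annotation has 24 whose symbol ends in L or L with a number. Of these, 1 was listed, beside 65.6% of all tested genes. A copy without a row was either not called or not tested, so its absence does not show equal levels. The listed copy, COX6AL, is a copy of cytochrome c oxidase subunit VIa with a single exon. COX6AL was placed at 6.16 on the log2 scale by the authors' deposited table (adjusted p = 0.0020). It was barely detected, at a mean of 0.78 CPM and an estimated 0.022 CPM in control and 1.54 CPM in tumor, and its unshrunk log2 fold change was 6.46. Among 6 testis markers, aly, can, sa, nht and bam had no row, and 1 was called higher (16.7%, beside 34% of all tested genes). That marker, mia, was 3.40-fold higher per the authors' deposited table, at a mean of 5.78 CPM. The part of other cell types in this value was not tested. The usual subunit VIa gene, levy, was 4.79-fold lower per the authors' deposited table at a mean of 318 CPM. Besides the copies, ND-B8, ND-MNLL, ND-MWFE, UQCR-14 and SdhA had no row, nor did any of the 13 mitochondrially encoded subunits, so the balance between both genomes was not analysed here.

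A short list of subunits outside the symbol rule was also lower. The list held levy, sun (the epsilon subunit of ATP synthase), NP15.6 (a complex I subunit) and CG7630, which the annotation now names COX7B. Of these, 4 of 4 were lower (100%, beside 31.6% of all tested genes), with a median of -2.37. CG7630 was already counted in the share taken from the annotation, so it is not a separate case here. CG7630, sun and NP15.6 were 5.94-fold, 5.59-fold and 3.66-fold lower per the authors' deposited table. Of 17 assembly factors found in the annotation 12 were listed, 10 lower (58.8% of 17, beside 31.6% of all tested genes) and 2 higher, with a median of -1.07. CIA30, which assembles complex I, and CG14806 were 4.94-fold and 3.14-fold lower per the authors' deposited table, and the mitochondrial RNA-binding genes bsf and Lrpprc2 were 2.77-fold and 1.84-fold higher there.

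The listed genes of fuel pathways were mostly lower. Of 15 glycolysis genes 10 were listed (66.7%, near the 65.6% of all tested genes called in either direction). These 10 were lower (66.7% of 15, beside 31.6% of all tested genes called lower), with a median of -2.002. Gapdh1 and Pglym78 were 7.29-fold and 6.01-fold lower, and Eno and Pgk 2.08-fold and 2.41-fold lower, per the authors' deposited table. Ldh, the lactate dehydrogenase gene, had no row. Of 21 genes of the tricarboxylic acid cycle and pyruvate dehydrogenase 17 were listed, 16 lower (76.2% of 21, beside 31.6%) and 1 higher, with a median of -1.10. The malate dehydrogenase genes Mdh1 and Mdh2 were 8.69-fold and 5.69-fold lower per the authors' deposited table, and Sucb, a subunit of succinyl-CoA synthetase, 6.32-fold lower. Men, the malic enzyme gene, was 2.01-fold higher there, and Acon, the aconitase gene, 1.495-fold lower. Of 19 redox defence genes 14 were listed, 10 lower (52.6% of 19, beside 31.6%) and 4 higher (21.1%, beside 34%), with a median of -1.54. In the authors' deposited table Jafrac2 and Cat (catalase) were 5.77-fold and 4.60-fold lower while Trxr-1 and cnc were 2.41-fold and 2.14-fold higher.

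The list of genes for mitochondrial DNA and regulators of mitochondrial biogenesis held both directions. Of its 20 genes 11 were listed, 8 higher (40.0% of 20, near the 34% of all tested genes) and 3 lower (15.0%, beside 31.6%), with a median of 1.08 beside 0.57 for all listed genes. Myc, a growth regulator, and mtRNApol, the mitochondrial RNA polymerase, were 5.33-fold and 5.21-fold higher per the authors' deposited table. The polymerase gene tam was 4.52-fold higher and srl, the fly PGC-1 homolog, 2.12-fold higher per the authors' deposited table. TFAM, which packages mitochondrial DNA, was 1.76-fold lower, mTTF, a transcription termination factor, 2.56-fold lower, and CG3107 2.29-fold lower, per the authors' deposited table. With listed totals set equal these 3 would be higher too.

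Lists of import, shape and carrier genes were mixed, and their shares called lower lay near the 31.6% of all tested genes: 34.8% of import genes, 42.9% of shape and quality control genes and 38.1% of carriers. Of 23 protein import genes 11 were listed, 8 lower and 3 higher (median -0.88), with the translocase genes Tim8 and Tom7 4.11-fold and 3.99-fold lower and the chaperone genes Hsc70-5 and Hsp60A 2.05-fold and 1.70-fold higher per the authors' deposited table. Of 21 shape and quality control genes 12 were listed, 9 lower and 3 higher (median -0.67), with QIL1 and porin, the outer membrane channel, 3.06-fold and 2.66-fold lower and milt, a transport adaptor, and Marf, the mitofusin, 2.85-fold and 2.40-fold higher per the authors' deposited table. Of 21 carriers other than sesB 11 were listed, 8 lower and 3 higher (median -0.94), with the phosphate carrier Mpcp1 and the carnitine carrier colt 19.3-fold and 5.73-fold lower and Ant2 and Dic1 2.54-fold and 2.35-fold higher per the authors' deposited table.

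**Figure D4:**
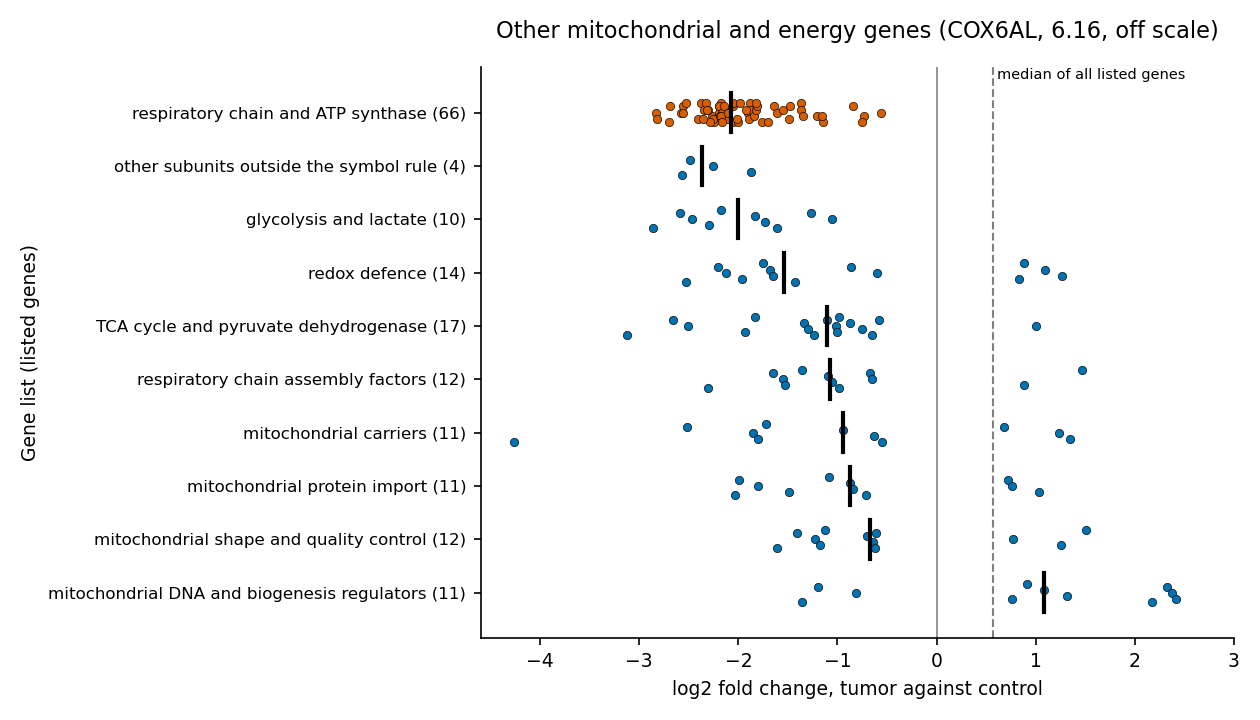
Each point is 1 listed gene, with its log2 fold change (authors' scale) on the horizontal axis and its list on the vertical axis, and black bars are medians. The list of mitochondrial DNA and biogenesis regulators has a median above 0 (1.08), and the other lists have medians below 0, from -2.37 to -0.67; with listed totals set equal (shift 1.80) those between -1.80 and 0 would lie above 0.

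Listed genes for proteins of the mitochondrial ribosome, which are also short and nuclear, fell less. Of these genes (symbols mRpL and mRpS) 56 were listed and 56 were lower, with a median of -1.21 and a median transcript of 740 bases, so the respiratory chain and ATP synthase genes had a median 0.86 log2 units lower at almost the same length. Their median estimated level in control was 33.1 CPM per kb against 204 for the 66 genes. Of cytosolic ribosomal protein genes (RpL and RpS) 16 were listed, 13 lower and 3 higher, with a median of -0.94. Differences between these sets were not tested. Ribosomal protein genes without a row were not counted for either ribosome. The counts and medians therefore hold for called genes only, and no share can be set beside the 31.6% and 34% of all tested genes called lower and higher.

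Markers of several cell types, the imaginal ring itself included, also differed between the groups. Of 11 muscle markers, from a tissue rich in mitochondria, 9 were listed and 9 were lower (81.8%, beside 31.6% of all tested genes). Their median was -3.23, with an estimated sum of 3203 CPM in control and 361 CPM in tumor. Of 7 fat body markers 7 were lower (100%, beside 31.6%), with an estimated sum of 193698 CPM in control and 1616 CPM in tumor. Of 7 markers of salivary gland secretory cells 6 were listed and lower (85.7%, beside 31.6%), with sums of 201560 CPM and 157 CPM. Of 5 imaginal ring markers eyg, toe, hth and Scr were higher (80%, beside 34% of all tested genes) and exd had no row. Their sums were 145 CPM in control and 717 CPM in tumor. All 6 hemocyte markers and both tracheal markers were higher (100% of each list, beside 34%). In control and tumor the sums were 28.2 and 1473 CPM for hemocytes and 6.62 and 74.3 CPM for trachea. In control the sums for fat body and secretory cells were far above that of the imaginal ring (145 CPM). In tumor the ring sum (717 CPM) was above that of secretory cells (157 CPM) and below those of fat body and hemocytes. The share of each cell type in a sample was not tested, so ring cells cannot be assumed to be compared with ring cells. The part of these cell types in the fall of respiratory chain genes was not tested.

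The genes are spread over the genome. They lie on the X (11 genes), 2L (14), 2R (12), 3L (13), 3R (14) and 4 (2), with medians between -2.20 and -1.46. Annotated exons of 32 of the 66 genes share bases with another annotated gene, microRNA genes included, 6 of them on the same strand. If the counting ignored strand, reads of these genes and their partners cannot be told apart. The 34 genes that share none had a median of -1.99, with 33 lower.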

How the data were processed

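RNA was sequenced from 3 control and 3 tumor samples, grouped by title. The submitters' processing notes name featureCounts and DESeq2, without versions, whereas the column names match edgeR's minimum-fold test, so the tool behind the values is not settled here. The sources used here do not give aligner, build, annotation, strand or normalization. Per the file headers, the table gives each gene's log2 fold change (shrunken and unshrunk), average log2 CPM, p-value and false discovery rate (adjusted p), all computed by the authors. A second sheet by the authors counts their calls among 9384 tested genes under the headings log 1.2 and log 2, taken to be minimum folds.

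Group CPM was estimated by treating the average CPM as the mean of control and tumor, an assumption that could not be checked without values per sample. Folds are powers of 2 of the deposited log2 value. Transcript length is the median over a gene's transcripts in Ensembl release 115 (BDGP6, version 54), which covers 6111 listed genes (99.3%). Coordinates are not used, since the authors' build is not known. Python 3.11.15 and pandas 2.3.3 were used.

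No test of single genes and no set test was run, and calls are the authors' adjusted p below 0.05. The members, gene lists, markers and settings were chosen with earlier results of these data known. Scaling to totals and the restriction on shared exons were added after the values were seen, and the lists of subunits and assembly factors were then adjusted. From other lists the 2 highest and 2 lowest fold changes are named. The other genes named from those lists (tam, srl, TFAM, Mdh2, NP15.6, levy, mia and genes without a row) were added after their values were seen.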

Additional observations from a re-analysis of the deposited data

How the results depend on the processing

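No paired analysis was possible because the deposited comparison holds no value per sample, and for the same reason leaving out a replicate was not run. No spread between replicates exists, so a median was taken as moved when it changed by over 0.1 on the log2 scale. The count of 65 lower genes became 64 at an adjusted p below 0.01, 61 at a minimum of 2-fold, 58 with library totals set equal, 48 with listed totals set equal, and 33 of 34 among genes sharing no exon base. The count of 1 higher gene became 0 once genes in the lowest expression quartile (mean log2 CPM up to 3.06) were left out, 8 with library totals equal and 18 with listed totals equal. It was also 0 with subunits only, a setting that kept the carriers and left out Sdhaf3 and COX6AL, the 1 higher gene itself.

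No median of a complex changed sign under any setting run. Over all 66 genes the median of -2.08 was -2.65 when centred on all listed genes, -0.28 with listed totals equal, -0.85 with library totals equal, and the mean was -1.84. In that order the values were -2.62, -0.25, -0.83 and -1.91 for complex I, -2.51, -0.14, -0.72 and -1.72 for complex II, and -2.61, -0.24, -0.82 and -1.83 for complex III. For complex IV they were -2.88, -0.51, -1.09 and -1.33 (the mean is moved by COX6AL), and for complex V -2.73, -0.36 and -0.93. Among genes sharing no exon base the medians were -1.86 for complex I and -1.92 for complex III (UQCR-11, Cyt-c1 and UQCR-C1). In complex II only SdhC shares none, so its -2.05 is the value of a single gene. Complex II was at -2.05 also at a minimum of 2-fold, without the lowest expression quartile and with subunits only.

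With listed totals set equal, 17 lower genes turned higher: ND-30 (0.043), Cyt-c-p (0.10), ND-PDSW (0.16), ND-SGDH (0.19), ATPsynbeta (0.25), ND-B16.6 (0.31), sesB (0.32), ND-49 (0.43), ND-23 (0.43), ND-42 (0.46), UQCR-C2 (0.60), blw (0.65), ND-20 (0.65), ND-51 (0.96), UQCR-C1 (1.04), SdhB (1.07) and ND-75 (1.24). With library totals equal 7 did, UQCR-C2 (0.019), blw (0.068), ND-20 (0.075), ND-51 (0.39), UQCR-C1 (0.47), SdhB (0.49) and ND-75 (0.66). These turns follow from adding a constant. The unshrunk values changed no call. Depth per library is unknown, so what it limits cannot be stated.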
